A study of Mus musculus with 15 samples.

Results

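Of 32764 regions of open chromatin found in blood stem cells of 3 Mtor genotypes, 2526 (7.71%) had a peak in the KI library and in the WT library and none in the KO library. The regions were made by merging the 3 deposited peak lists wherever peaks overlapped or touched (gap of 0 bp, chromosomes 1 to 19, X and Y), so the regions were chosen by peak presence in KI, KO and WT, which is not tested here. Of the 14808 regions with peaks in both KI and WT, 17.1% lacked a KO peak. The mirror classes held 3502 regions with KI and KO peaks and no WT peak (10.7%, or 22.2% of regions with KI and KO peaks) and 430 with KO and WT peaks and no KI peak (1.31%, or 3.38% of regions with KO and WT peaks). The set bears on where loss of the mTOR protein and a changed mTOR allele part ways, the question named in the title of the series. A smaller set of 241 regions, called high-ranked below, had a score at or above the median of its own list in both KI and WT. These made up 2.98% of the 8077 regions with peaks of that rank in both lists.

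The cells were haematopoietic stem cells (HSC) sorted from adult mice that had received poly(I:C), an RNA mimic that induces interferon and with it the Mx1-Cre recombinase. KI mice were Mx1-Cre+/-;mTORflox/knockin, KO mice Mx1-Cre+/-;mTORflox/flox and WT control mice Mx1-Cre-/-;mTORflox/flox. All groups thus carried at least 1 floxed Mtor allele and had poly(I:C), and the WT control had no Cre. Mx1-Cre is active in many interferon-responsive cells and not in HSC alone. The labels give neither the mutation of the knock-in allele nor which part of the gene is floxed. ATAC-seq, in which a transposase cuts and tags accessible DNA, was run on 1 library per genotype from 50000 cells each, and the RNA-seq samples of the series were not analysed here.

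Replicates were lacking, so differences below are between single libraries, with no replicate error and no test between genotypes. The lists held 28391 peaks in KI, 19189 in KO and 17316 in WT, at a read depth that is unknown. The word re-analyzed stands in the labels of the KO and WT libraries alone, so the KI genotype and a batch cannot be told apart. Cre and the mutant alleles cannot be told apart either in any comparison with WT. Of 35 HSC marker genes, including Kit, Meis1 and Mecom, 22 in KI, 15 in KO and 17 in WT had a region within 1 kb of a gene end. Erythroid markers counted 16 in KI, 11 in KO and 7 in WT of 25, dendritic and antigen presentation markers 15, 12 and 12 of 25 and granulocyte and monocyte markers 17, 7 and 8 of 32. Megakaryocyte markers counted 8, 5 and 7 of 21, stromal ones 8, 6 and 5 of 24, T and NK ones 7, 4 and 3 of 26, B lymphoid ones 4, 2 and 3 of 20 and mast cell ones 4, 1 and 1 of 17. KI, which had the longest peak list, counted most in every marker list. No share over all genes per library stands beside these counts, so they do not compare cell types between genotypes. HSC markers were thus not the only ones with open gene ends, and the part of other cell types in the regions below was not tested.

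mTOR is a kinase at the core of a pair of complexes. mTORC1 promotes ribosome production and protein synthesis and restrains autophagy when amino acids and growth factors are plentiful, and mTORC2 phosphorylates AKT. In HSC, mTOR activity is tied to the balance between quiescence and growth, and loss of mTOR impairs blood formation. Open chromatin marks promoters and enhancers to which transcription factors can bind.

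The sequences of some promoters in these regions show what lay under the peaks. Printed are the promoters of the first 4 high-ranked gene-end regions for which the RefSeq promoter table has an entry, followed by Cish and Runx1, chosen after their values were seen. Cish had the highest KI score of the set, and Runx1 had a region at each of 2 annotated starts. Each runs from 250 bases before to 50 bases after a start, 5′ to 3′ on the gene's strand, from RefSeq on GRCm38.p6 (the assembly of mm10). Capitals mark exact matches, on either strand, to the motif letters listed with the promoter results. The Mtor promoter is chr4:148448332-148448631 (plus strand), Fam161a chr11:23008097-23008396 (plus), Rnf111 chr9:70503329-70503628 (minus), Optn chr2:5064068-5064367 (minus) and Cish chr9:107296409-107296708 (plus). The Runx1 windows are chr16:92826025-92826324 at the distal start and chr16:92697280-92697579 at the proximal start, both on the minus strand.
Mtor: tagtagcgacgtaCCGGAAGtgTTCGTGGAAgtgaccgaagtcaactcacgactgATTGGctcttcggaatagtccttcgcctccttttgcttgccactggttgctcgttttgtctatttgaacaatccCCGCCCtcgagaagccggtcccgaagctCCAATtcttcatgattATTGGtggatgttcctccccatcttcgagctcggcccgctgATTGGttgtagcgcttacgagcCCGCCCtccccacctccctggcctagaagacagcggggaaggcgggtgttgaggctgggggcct
Fam161a: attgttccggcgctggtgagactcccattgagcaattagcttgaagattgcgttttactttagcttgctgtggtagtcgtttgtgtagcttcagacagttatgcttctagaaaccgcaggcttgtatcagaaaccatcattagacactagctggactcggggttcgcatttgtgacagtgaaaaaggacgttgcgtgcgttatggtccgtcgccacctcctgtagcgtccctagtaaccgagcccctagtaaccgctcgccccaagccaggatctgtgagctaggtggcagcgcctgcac
Rnf111: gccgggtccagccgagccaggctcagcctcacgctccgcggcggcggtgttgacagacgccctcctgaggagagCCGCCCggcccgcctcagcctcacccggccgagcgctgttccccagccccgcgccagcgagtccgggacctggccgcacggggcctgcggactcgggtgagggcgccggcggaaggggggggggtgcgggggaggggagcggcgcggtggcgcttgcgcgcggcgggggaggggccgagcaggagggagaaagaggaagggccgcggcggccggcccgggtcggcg
Optn: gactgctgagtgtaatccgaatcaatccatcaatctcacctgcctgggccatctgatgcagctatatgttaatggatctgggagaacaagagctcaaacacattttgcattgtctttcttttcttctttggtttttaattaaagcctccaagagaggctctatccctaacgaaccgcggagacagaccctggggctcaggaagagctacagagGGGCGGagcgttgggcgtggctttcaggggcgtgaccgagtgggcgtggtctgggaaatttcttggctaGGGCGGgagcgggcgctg
Cish: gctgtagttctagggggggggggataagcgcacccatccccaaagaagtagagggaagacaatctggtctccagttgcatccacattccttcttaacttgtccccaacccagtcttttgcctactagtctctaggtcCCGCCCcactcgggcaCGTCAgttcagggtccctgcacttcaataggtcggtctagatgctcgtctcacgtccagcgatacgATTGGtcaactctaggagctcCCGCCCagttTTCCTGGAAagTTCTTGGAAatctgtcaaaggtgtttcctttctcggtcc
Runx1 distal start: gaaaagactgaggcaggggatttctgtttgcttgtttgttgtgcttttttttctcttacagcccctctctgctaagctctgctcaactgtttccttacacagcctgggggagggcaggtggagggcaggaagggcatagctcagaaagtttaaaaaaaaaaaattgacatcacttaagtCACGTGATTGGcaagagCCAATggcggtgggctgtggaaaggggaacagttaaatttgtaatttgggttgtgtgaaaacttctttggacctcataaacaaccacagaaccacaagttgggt
Runx1 proximal start: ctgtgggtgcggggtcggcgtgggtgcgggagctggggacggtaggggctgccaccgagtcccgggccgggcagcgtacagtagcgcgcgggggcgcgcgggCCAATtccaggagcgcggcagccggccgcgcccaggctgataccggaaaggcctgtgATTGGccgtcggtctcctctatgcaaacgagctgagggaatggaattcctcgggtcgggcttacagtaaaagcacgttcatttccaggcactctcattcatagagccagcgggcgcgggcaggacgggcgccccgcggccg

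The Mtor promoter held 4 CCAAT boxes, 2 GC boxes, 1 ETS core and 1 STAT motif. That of Cish, a feedback inhibitor of STAT5 signalling, held 2 adjacent STAT motifs near the start, with 2 GC boxes and 1 CCAAT box. Both Runx1 windows held 2 CCAAT boxes. Their base composition differed, with a GC content of 45% and 2 CpG at the distal start and of 69.0% and 35 CpG at the proximal one. The Fam161a window held none of the motifs searched, which says only that these letters are not in it.

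Most of the 2526 regions ranked low in their lists. A region's score is the highest score the authors gave to its peaks in a list, and its percentile is the rank of that score within the same list. KI scores of the set ran from 50.01 through a median of 83.38 to 314.78, and WT scores from 50.01 through 67.94 to 341.21. The median percentile was 43.3 in the KI list and 26.9 in the WT list. Regions with peaks in all 3 lists had medians of 77.9 in KI and 63.9 in WT. In KI, 996 of the 2526 (39.4%) reached their list's median score, and in WT 382 (15.1%). At that cut the values ran on without a break. The lowest KI score inside it was 93.3 and the highest outside 93.27, and in WT these were 94.67 and 94.66.

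**Figure D1:**
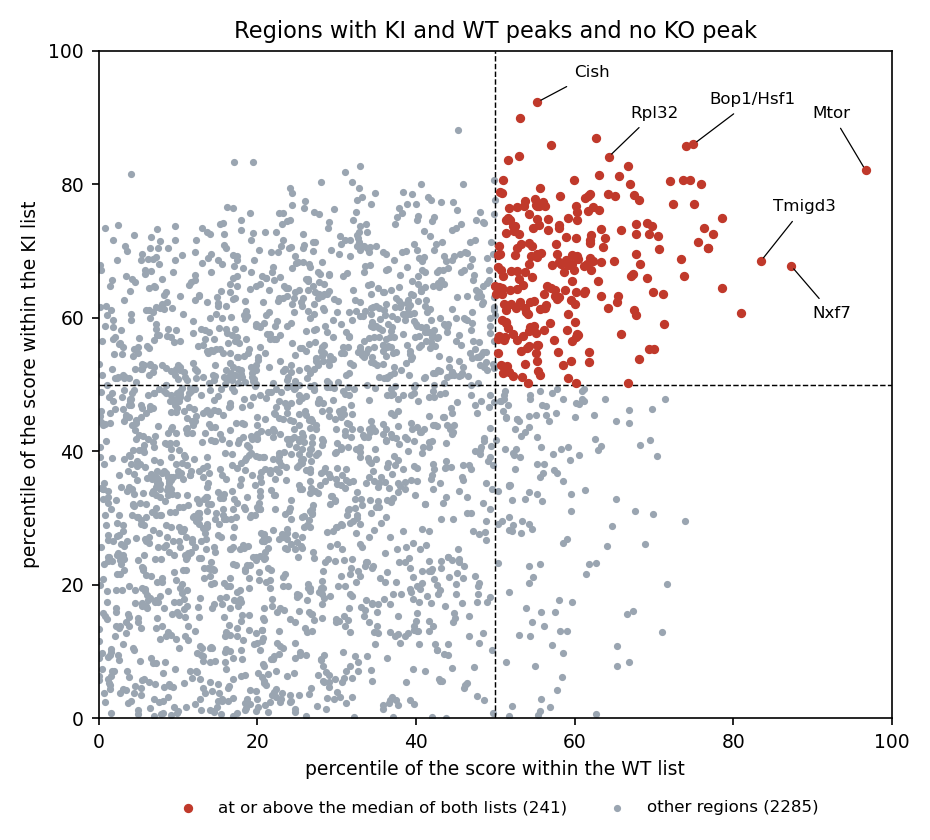
Percentile of each of the 2526 regions' scores within the KI list (vertical axis) and within the WT list (horizontal axis), with the 241 high-ranked regions in red and both medians as dashed lines. Most points lie left of the WT median, and Mtor stands at percentile 96.7 in WT and 82.1 in KI.

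The share of KI and WT regions without a KO peak was smaller in each higher class of rank. In the lowest 10% of KI scores it was 63.7% (Wilson 95% interval 58.6 to 68.6, here and below covering counting error over regions only). It was 27.8% at percentiles 50 to 60, 7.52% at 70 to 80 and 1.04% at 80 to 90. In the top 10% of KI scores a single region of 2833 lacked a KO peak, that of Cish. Ranked by WT score the share was 46.2% in the lowest 10%, 15% at percentiles 50 to 60 and 0.173% (3 of 1731) at 80 to 90. The single region of 1730 in the top 10% of WT scores was that of Mtor.

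**Figure D2:**
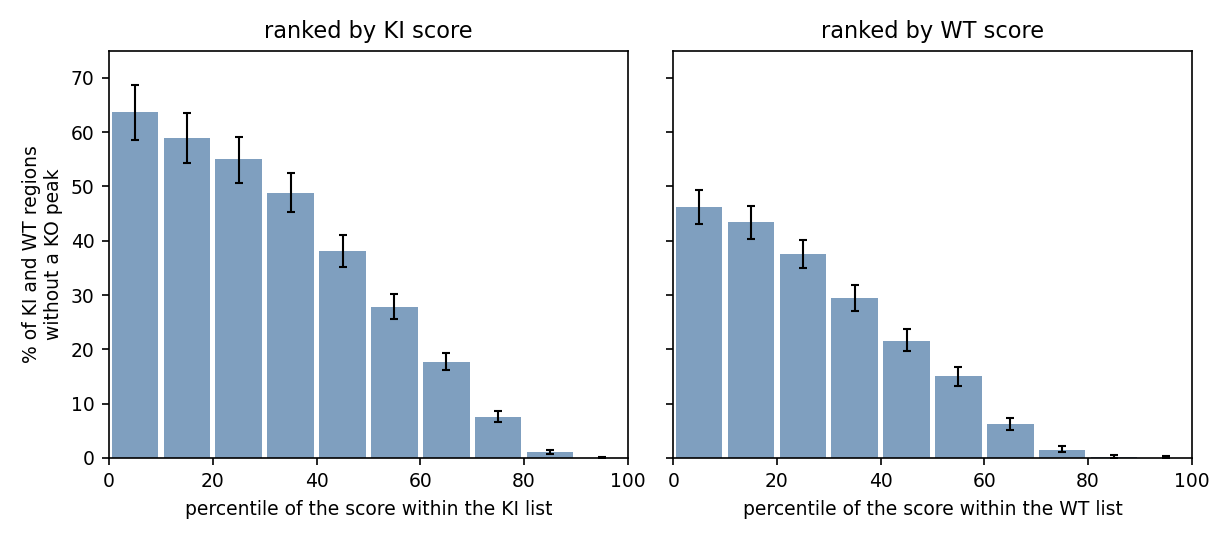
Share of regions with KI and WT peaks that lacked a KO peak (%), by percentile of the score within the KI list (left) and within the WT list (right), with Wilson 95% intervals. The share was 63.7% in the lowest class and 0.0353% in the highest class of KI scores, and 46.2% and 0.0578% in those classes of WT scores.

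The region of Mtor itself led the set. It covered chr4:148448060-148449268 over the annotated start of the gene, with a KI score of 210.27, a WT score of 341.21 and no KO peak. Nearest to it was a KO peak 3153 bp away, in a region upstream that had peaks in all 3 lists with percentiles of 49.5 in KI, 43.1 in KO and 46.6 in WT. A further region inside the gene also had all 3 peaks, at percentiles 40.0, 52.5 and 41.4. The start was therefore the one merged region within 5 kb of Mtor with KI and WT peaks and no KO peak, among 4 there. By genotype, Cre can recombine both Mtor alleles in KO mice and also the floxed allele in KI mice, which keep the knock-in allele. The labels do not give the floxed part. Closed chromatin at the start and removal of its DNA therefore cannot be told apart in KO, and the KI peak need not come from both alleles.

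**Figure D3:**
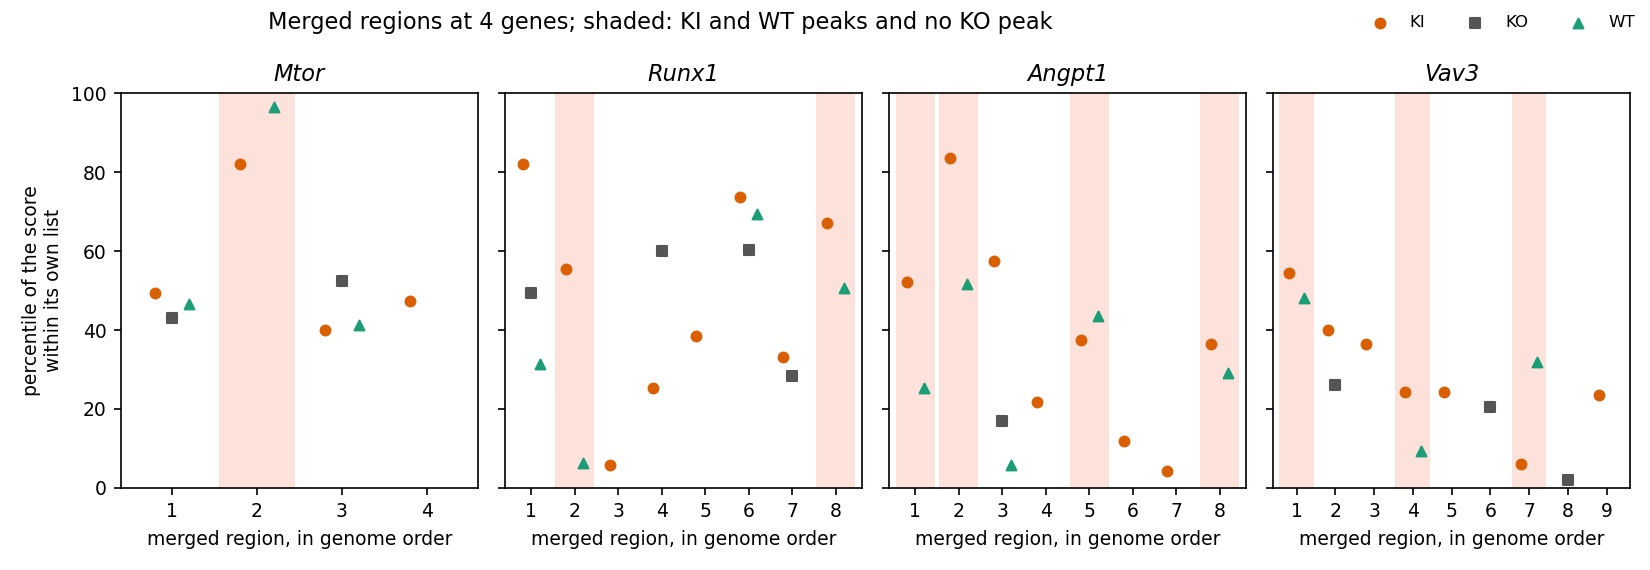
Percentile of the score within its own list (vertical axis) for KI, KO and WT peaks in every merged region within 5 kb of Mtor, Runx1, Angpt1 and Vav3, numbered in genome order, with regions that have KI and WT peaks and no KO peak shaded. At Mtor the shaded region is the start, at Runx1 the shaded regions are the proximal and distal starts, and at Angpt1 4 of 8 regions are shaded.

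After Mtor, the next gene-end regions by rank belonged to genes of many kinds. Bop1, a factor for maturation of the large ribosomal subunit, shares its end with Hsf1, the main activator of heat shock genes, and the region over both had a KI score of 242.54 (percentile 86.0) and a WT score of 155.23 (75). Rpl32, a protein of the large ribosomal subunit, had scores of 225.73 in KI and 124.04 in WT (percentiles 84.1 and 64.3). Gmpr2, a GMP reductase, and Nedd8, a ubiquitin-like modifier of cullins, shared a region at chr14:55671687-55672554 with percentiles of 80.5 in KI and 72.1 in WT. Hadha and Hadhb, which encode the subunits of the mitochondrial enzyme of fatty acid oxidation, shared one at percentiles 65.9 and 69.2. Rhot1 encodes a GTPase that couples mitochondria to their transport motors, and its region over the start reached percentile 82.7 in KI and 66.8 in WT.

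The other named gene ends are given by what their genes do, with no count or test of such groups. Eya1 and Eya3 encode transcription coactivators with phosphatase activity. Their regions had percentiles of 77 in KI and 75.1 in WT at an end of Eya1, and of 72.2 and 70.5 at the Eya3 start. The RefSeq promoter table had no entry within 1 kb of the Eya1 region, which does not show that no start lies there. Bmi1, the Polycomb protein required for HSC self-renewal, had a region over its start, chr2:18676303-18677513, with scores of 144.13 in KI and 133.03 in WT. That region also lay within 1 kb of an end of Commd3, which had a KO peak at an end, and the nearest KO peak was 3614 bp away. Etv4, an ETS family factor, stood at percentiles 72.5 and 67.8, Scrt2, a zinc finger repressor, at 80.1 and 67, and Zfp101 at 78.2 and 65.1. Rnf111, a ubiquitin ligase that enhances TGF-β signalling, had 80.6 and 74.5, and Clasrp, a splicing-related protein, 77.6 and 68.1.

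The rest of the 25 gene ends named by rank had varied roles. Optn, an autophagy receptor, had scores of 156.0 in KI and 164.72 in WT at its start, and the nearest KO peak was 50517 bp away. Rab7, the GTPase of late endosomes, had 132.05 and 151.57, with the nearest KO peak 71069 bp away. Sptb, the beta-spectrin of the red cell membrane skeleton, Syne2, a nuclear envelope protein (in a region shared with Gm40447), and Lima1, an actin-binding protein, had KI percentiles of 70.3 to 74.2 and WT percentiles of 69.2 to 76.8. Polq, the polymerase of error-prone end joining, stood at 74.0 in KI and 67.7 in WT, and Fam161a, a ciliary and centrosomal protein, at 75 and 78.6. Ltbr, the lymphotoxin beta receptor, shared a region with Scnn1a, a sodium channel subunit, at 66.6 and 67.4. The list closed with Srbd1, Abhd16a, a lipid hydrolase, and Crh, the stress hormone of the hypothalamus, at KI percentiles of 72.0 to 80.7 and WT percentiles of 63.8 to 73.7.

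Away from gene ends, the first 12 high-ranked regions with a gene within 50 kb were named by that gene. Slc7a5 encodes the transporter that brings leucine, an activator of mTORC1, into cells. A region inside it, chr8:121898260-121898846, had scores of 151.48 in KI and 157.45 in WT (percentiles 71.3 and 75.6), and a KO peak was present at an end of the gene, with the nearest KO peak 8796 bp off. Dgkz, a diacylglycerol kinase, had a region within 1 kb of an internal annotated start at percentiles 85.8 in KI and 74.1 in WT. Egr2, an early growth response factor, lay 30257 bp from its region (72.6 and 69.4), and Fcgr4, an IgG receptor, 20194 bp from its own (66.3 and 67.1). The remaining ones were nearest to or inside Cpne2, Chp2, Dnajb12, Rnf216, Add3, Tmigd3, Cxxc5 and Nxf7, at KI percentiles of 67.8 to 80.0 and WT percentiles of 68.2 to 87.3. Of these genes, Cpne2, Dnajb12, Rnf216 and Add3 had a KO peak at an end, and the others did not. All 37 regions named by rank also belonged to the set when each list was reduced to its 17316 highest-scoring peaks. Their ranks fixed that outcome in advance, so it is no check of them. At that size WT lost no peak, KO could only lose peaks, and the KI peaks of these regions ranked above the cut.

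Within each list the highest scores of the set went to further genes. The Cish region, chr9:107295536-107297153, had a KI score of 314.78 (percentile 92.3) and a WT score of 103.91 (55.3), and the nearest KO peak was 5441 bp away. Its KI peak filled the whole region and its WT peak covered chr9:107296410-107296952, over the printed promoter. A region within 1 kb of a start inside Mrpl48, a mitochondrial ribosomal protein gene, had 281.84 in KI and 99.64 in WT. The region shared by Emilin1, an extracellular matrix glycoprotein, and Khk, ketohexokinase, had 261.51 and 87.27, below the WT median. In WT the highest scores after Mtor belonged to regions 4611 bp from Nxf7 (219.55, against 137.42 in KI), inside Tmigd3 (195.46, against 139.97) and at the shared starts of Gba2, a glucosylceramidase, and Rgp1 (181.74, against 115.94). Scores of separate lists are given side by side and not compared.

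At the level of genes, 868 had such a region within 1 kb of an end, which is 9.21% of the 9422 genes with any KI and WT region there and 3.97% of all 21891 genes. Of the 868, 722 (83.2%) had no KO peak at either end and 146 had one at an end. In 37 lists of cell type markers and pathways, 110 of the 1305 genes with a KI and WT region had one without a KO peak (8.43%), close to the 9.21% over all genes. The lists were chosen with results of these data known, and their counts carry no test.

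**Figure D4:**
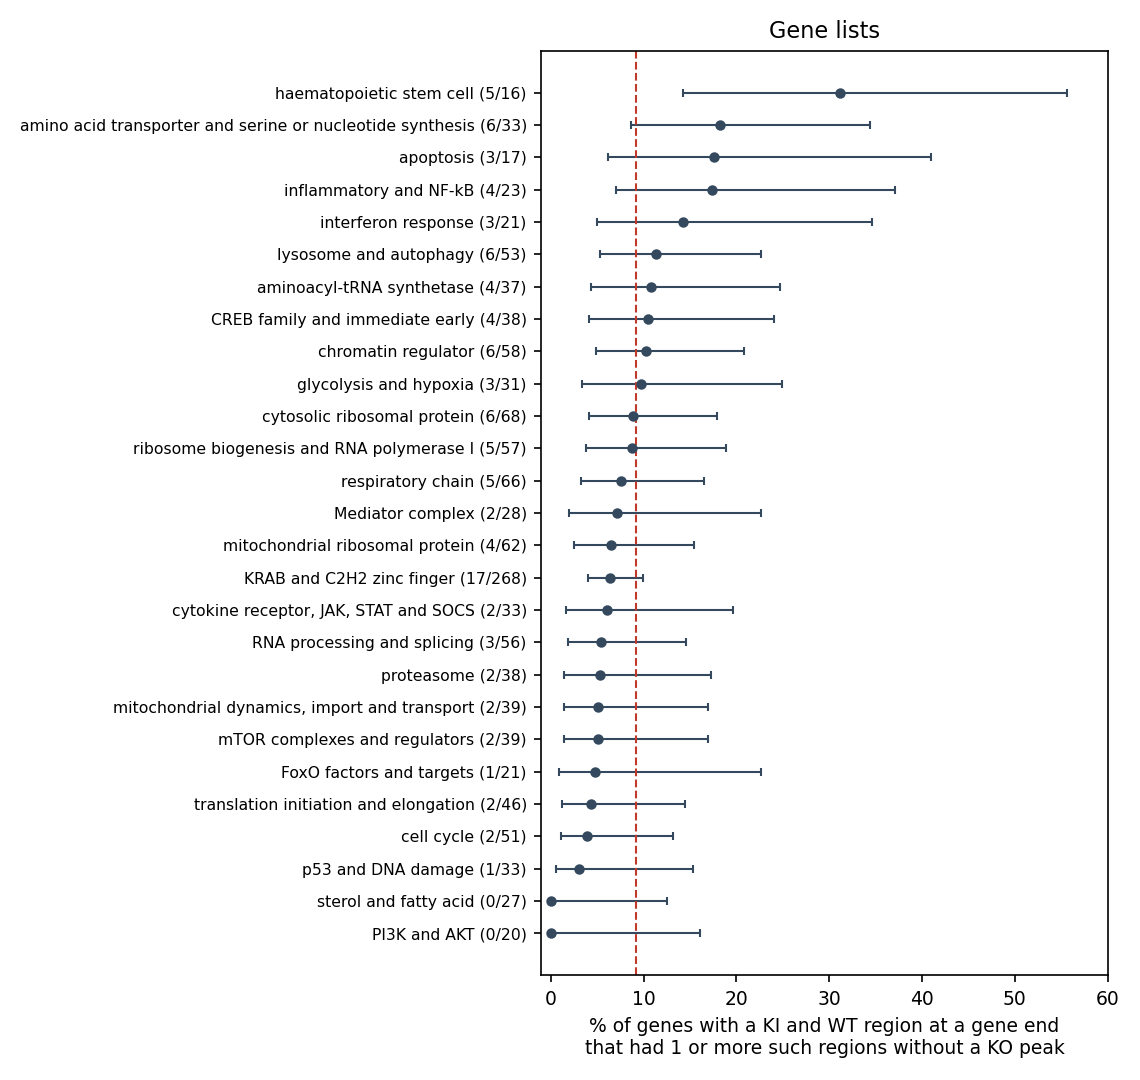
Share of each gene list's members with a KI and WT region at a gene end that had at least 1 such region without a KO peak (%), with Wilson 95% intervals, for lists with at least 15 such members (counts in parentheses). The dashed line is the share over all genes, 9.21%, and of the lists shown the HSC list lies highest at 31.2%. Smaller lists, some with higher shares, are not shown.

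Among HSC markers, 5 of 16 genes with a KI and WT region had one without a KO peak, a share of 31.2% (14.2 to 55.6). Runx1, a transcription factor required for the emergence of HSC, had 2 of them. The region at its distal start, chr16:92825507-92826290, had scores of 135.06 in KI and 95.69 in WT (percentiles 67.2 and 50.7). That at its proximal start, chr16:92697164-92697782, had 103.77 and 53.78 (55.5 and 6.39). Of 8 merged regions at Runx1, 2 had peaks in all 3 lists and 2 had KI and KO peaks only, so KO peaks were present within the gene away from its starts.

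The other HSC genes had lower scores. Meis1, a homeobox factor of HSC, had 84.0 in KI and 68.36 in WT, with a KO peak 959 bp away. Cd34, a surface glycoprotein of progenitors, had 69.27 and 71.68. Angpt1, a ligand of the Tie2 receptor, had 75.36 in KI and 69.79 in WT near its gene end, with the nearest KO peak 197448 bp away. At equal list size 2 of these genes kept such a region, Runx1 and Meis1. Of 6 megakaryocyte genes 3 were counted, among them Gp9, part of a platelet adhesion receptor, and F2rl2, a thrombin receptor, and at equal list size none remained. Gfi1, a repressor that restrains HSC proliferation, and Lyz2, a lysozyme, were 2 of 8 granulocyte and monocyte genes, with KI percentiles of 19.5 and 35.8. Neither remained at equal list size, where 1 other gene of that list was counted.

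Lymphoid and other marker lists had few genes with a KI and WT region. Of these, T and NK markers counted 2 of 3, B lymphoid ones 1 of 3, dendritic and antigen presentation ones 1 of 10 and stromal ones 2 of 5. Notch1, a receptor of T cell commitment, had percentiles of 66.2 in KI and 20.6 in WT, and Cd247, a T cell receptor chain, 15.9 and 9.93. Ebf1, a B cell factor, stood at 35.5 and 26.7 and H2-Eb1, a class II antigen presentation gene, at 10.5 and 14.1. Sptb was the 1 erythroid gene of 7. Emilin2, with Emilin1 in the stromal list, had 35.1 and 7.70. Emilin1 was counted through a region it shares with Khk, and the start found within 1 kb was that of Khk. None of 17 mast cell, basophil and eosinophil markers had a KI and WT region at a gene end at all. Bulk libraries do not tell a change in the share of such cells from a change in each cell.

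Within the mTOR pathway itself, 2 of 39 genes had such a region, Mtor and Rictor (5.13%, 1.42 to 16.9). Rictor, the defining subunit of mTORC2, had scores of 108.73 in KI and 58.38 in WT (percentiles 57.8 and 13.9), and a KO peak lay 1787 bp away. None of the 20 PI3K and AKT genes with a KI and WT region and none of the 27 sterol and fatty acid genes had a region that lacked KO. With gene ends taken as 2500 bp, 4 genes of the mTOR list had one.

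Genes of the translation machinery were present at about the share of all genes. Cytosolic ribosomal proteins counted 6 of 68 (8.82%). Beside Rpl32 these included Rps15, a protein of the small subunit that also ranked high in both lists (123.82 in KI, 142.62 in WT), and Rpl3 and Rpl12 of the large subunit, with KI percentiles of 54.2 and 64.8 and WT percentiles of 47.7 and 23.4. Ribosome biogenesis counted 5 of 57 (8.77%): Bop1, its partner Pes1, the exosome subunits Exosc3 and Exosc4, and Taf1a, a subunit of the RNA polymerase I factor SL1, with 181.21 in KI and 94.66 in WT. Translation factors counted 2 of 46, Eif3i and the elongation factor Eef2, and at equal list size 4 genes of this list were counted, 1 of them shared with these. Of aminoacyl-tRNA synthetases 4 of 37 were counted, where Hars and Hars2, cytosolic and mitochondrial histidyl enzymes, share 1 region (percentiles 79.4 in KI and 55.7 in WT), and Vars and Vars2 each had their own. Mitochondrial ribosomal proteins counted 4 of 62, with Mrpl2 and Mrpl58 at KI percentiles 55.5 and 81.8, and both had a KO peak at an end of the gene.

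Amino acid and nucleotide supply stood at 6 of 33 genes (18.2%, 8.61 to 34.4). Phgdh, the first enzyme of serine synthesis, had scores of 164.18 in KI and 69.69 in WT. G6pdx, which feeds the pentose phosphate pathway, had 138.42 and 113.27, and was the one member ranked above both medians. Its region also lay inside Ikbkg, within 1 kb of an annotated start of that gene. Tyms, thymidylate synthase, stood at percentiles 35.6 and 28.5. The transporters Slc7a6, Slc6a9 and Slc38a1 had KI percentiles of 12.8 to 70.2 and WT percentiles of 19.9 to 29.3. None of the 6 genes had a KO peak at either end, as was so for 83.2% of the 868 genes. At equal list size 4 of the 6 remained.

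Lysosome and autophagy genes, a target of mTORC1 control, counted 6 of 53 (11.3%, 5.29 to 22.6). Beside Optn and Gba2 these were the proton pump subunits Atp6v0b (60.3 in KI, 32.9 in WT, as percentiles) and Atp6v0a1 (70.5 and 24.0), Ctsa, a lysosomal carboxypeptidase (53.5 and 22.9), and Tfeb. Tfeb, the master transcription factor of lysosomal genes, had a region at percentiles 28.0 and 3.12 with a KO peak 266 bp away. The respiratory chain counted 5 of 66 (7.58%), 4 of them complex I subunits, Ndufs3, Ndufs4, Ndufs7 and Ndufa8, at KI percentiles of 63.6 to 74.9 and WT percentiles of 6.62 to 51.6, and the fifth Uqcr11 of complex III. Glycolysis and hypoxia counted 3 of 31, and 1 at equal list size. Hif1an, the asparagine hydroxylase that inhibits HIF1A, had 220.95 in KI and 60.48 in WT, Pdk4, a kinase of pyruvate dehydrogenase, 77.41 and 67.81, and Hk2, hexokinase, 50.46 and 55.85 with a KO peak 170 bp away. Mitochondrial dynamics and transport counted 2 of 39, Rhot1 and Ppargc1a, a coactivator of mitochondrial biogenesis, with 111.88 in KI and 70.99 in WT. FoxO factors and targets counted 1 of 21, Pdk4, which was lost at equal list size, where 2 other genes of the list were counted.

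Inflammatory and NF-κB genes counted 4 of 23 (17.4%, 6.98 to 37.1), and 2 at equal list size. Nfkb1, an NF-κB subunit, had scores of 147.29 in KI and 74.17 in WT. Tlr2, a receptor of bacterial lipopeptides, had 98.75 and 65.82, and Rela, the partner of Nfkb1, and the kinase Map3k8 had KI percentiles of 16.0 and 30.1. Interferon response genes counted 3 of 21, Psmb10, Ifi27 and Oasl1, at KI percentiles of 46.0 to 62.1 and WT percentiles of 8.03 to 28.2. Poly(I:C) went to all groups, and whether the interferon stimulus was equal among them was not tested. Of 33 cytokine receptor, JAK, STAT and SOCS genes 2 were counted, Cish and Ifngr2, a chain of the interferon gamma receptor with a KO peak 485 bp away.

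Cell cycle genes counted 2 of 51 (3.92%, 1.08 to 13.2). They were Cdkn2b, a CDK inhibitor, at percentiles 62.4 in KI and 20.7 in WT and Rbl1, a pocket protein, at 67.2 and 5.79. In the p53 list Trp53 was the 1 gene of 33. Its region, chr11:69579001-69579727, lay at the shared end with Wrap53 and had 161.52 in KI and 98.34 in WT, yet a KO peak lay 207 bp away. Apoptosis genes counted 3 of 17 (17.6%, 6.19 to 41.0), Bad and Bcl2l2 of the BCL2 family and Casp8, the initiator caspase of death receptors. Bad stood at percentiles 70.1 and 42.3, Casp8 at 63.9 and 24.7 and Bcl2l2 at 3.34 and 47.7.

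Chromatin regulators counted 6 of 58 (10.3%, 4.83 to 20.8). Dnmt3b, a de novo DNA methyltransferase, had scores of 137.67 in KI and 112.27 in WT, and Kdm1a, a histone H3 demethylase, 195.87 and 88.09, with the nearest KO peak 232747 bp away. Besides Bmi1 and Ring1 of Polycomb, the list held Kdm2b, a demethylase that recruits Polycomb, at percentiles 49.0 and 51.2 and Tet2, a methylcytosine dioxygenase, at 30.4 and 0.762. Mediator counted 2 of 28, Med1 (214.68 in KI, 73.22 in WT) and Med13l (179.97 and 86.52). Zinc finger genes of the KRAB and C2H2 list, most of them transcriptional repressors, counted 17 of 268 (6.34%, 4 to 9.92), and 1 of these, Zfp101, ranked above both medians. CREB family and immediate early genes counted 4 of 38, and 1 at equal list size. Junb and Crebzf had KO peaks 96 bp and 343 bp away, and Egr3 and Creb5 had KI percentiles of 47.8 and 34.0. RNA processing counted 3 of 56, with the splicing factor Srsf9 at percentiles 76.6 and 52.8, and the proteasome 2 of 38, Psmb7 and Psmb10. Of 6 olfactory and vomeronasal receptors with a KI and WT region none was counted. The single Hox gene with a KI and WT region, Hoxa4, had no KO peak there and stood at 48.5 and 20.3.

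The regions lay mostly away from gene ends. Of the 2526, 767 (30.4%, 28.6 to 32.2) were within 1 kb of an annotated end of a gene, 955 (37.8%) in gene bodies and 804 (31.8%) intergenic. Of the 241 high-ranked ones, 112 (46.5%, 40.3 to 52.8) were at gene ends. The share was 61.2% for regions with all 3 peaks, 23.0% for those with KI and KO peaks and no WT peak and 18.8% for those with KO and WT peaks and no KI peak. A start from the RefSeq promoter table lay within 1 kb of 656 of the regions (26.0%) and of 6663 of those with all 3 peaks (54.3%). That table matched 685 of the 868 genes with a region at an end. A gene-end region without a start in it is thus not shown to be a 3′ end. Median width was 559 bp, against 889 bp for regions with all 3 peaks and 516 bp for those with KI and KO peaks only.

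**Figure D5:**
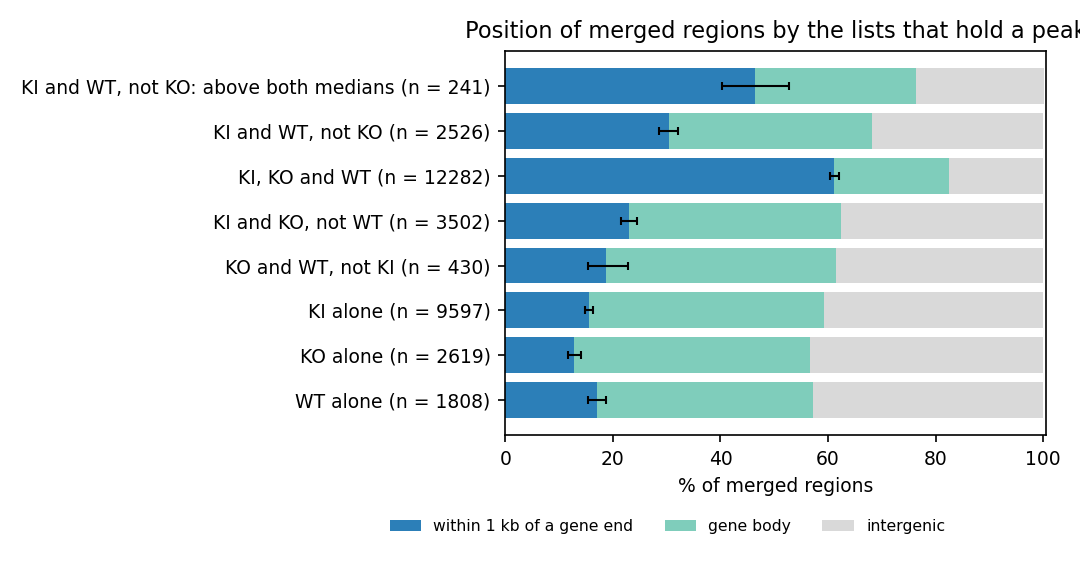
Share of merged regions (%) within 1 kb of a gene end, in gene bodies and in intergenic sequence, by the lists with a peak, with Wilson 95% intervals on the gene-end share. Gene ends made up 30.4% of the regions with KI and WT peaks and no KO peak, 46.5% of the high-ranked ones and 61.2% of those with all 3 peaks.

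Rank and position moved together, so the gene-end share was also read within classes of KI percentile. At percentiles 40 to 60 it was 29.9% (26.9 to 33.2) in the set, 35.4% (33.1 to 37.7) in regions with all 3 peaks and 22.4% (20.1 to 24.8) in those with KI and KO peaks only. At 60 to 80 the shares were 42.8%, 54.3% and 32.2%, and at 80 to 100 they were 66.7%, 79.3% and 49.1%, the first over 30 regions. In each of 5 classes the set thus lay between the other 2. By chromosome, 6.57% (X) to 9.14% (11) of merged regions belonged to it, and 1 of 27 on Y.

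KO peaks often lay some way off. The median distance to the nearest KO peak was 19629 bp and the smallest 6 bp, at a region near Prkcq. Within 100 bp there was a KO peak for 25 regions (0.990%), within 1 kb for 133 (5.27%, 4.46 to 6.21) and within 10 kb for 801 (31.7%). For comparison, 4.14% of regions with KI and KO peaks only had a WT peak within 1 kb, and 10.5% of those with KO and WT peaks only a KI peak. At the other side of the rule, the smallest overlap of a KO peak with a KI or WT peak in a region with all 3 was 38 bp. KI and WT peaks of the set overlapped by a median of 98.6% of the shorter peak, and 2477 regions had at least 50%.

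Some genes held several of these regions. Regions inside a gene or within 50 kb of their nearest gene named 2197 genes, of which 2000 had 1, 177 had 2 and 20 had at least 3, and 239 regions had no gene so near. The genes named here were picked for their high counts, and 17.1% of all KI and WT regions lacked a KO peak. Angpt1 had 4 of its 5 KI and WT regions without a KO peak. The strongest, chr15:42463209-42463796 in the gene body, had 222.69 in KI and 97.22 in WT, and the 1 region with a KO peak had 108.2 in KI, 59.21 in KO and 53.46 in WT. Gramd1b, a sterol transfer protein, had 4 of 6 and Nfia, a transcription factor, 4 of 8. These genes span 240 to 541 kb. Vav3, a guanine nucleotide exchange factor of blood cells, Rpn1, a subunit of the oligosaccharyltransferase, Gfra2, a neurotrophic receptor subunit, and Tnfsf9, the 4-1BB ligand, each had 3 of 3. At Vav3 the gene-end region had 101.46 in KI and 91.51 in WT, with a KO peak 386 bp away. KO peaks were present in 3 other merged regions of the gene. Long genes have more regions that could be counted, and the part of gene length was not tested.

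MicroRNA genes were rare near these regions. Of the 2526, 10 (0.396%, 0.215 to 0.727) lay within 1 kb of a hairpin, against 73 of the 12282 regions with all 3 peaks (0.594%, 0.473 to 0.747). By rank the first were those at Mir423 (100.29 in KI, 133.84 in WT) and Mir574 (87.69 and 138.67), which lie with Nsrp1 and with Fam114a1 and Tlr6. Their mature sequences are printed from RefSeq with the seed, bases 2 to 8, in capitals, and no seed is shared among them.
mmu-miR-574-5p: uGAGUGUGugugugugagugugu
mmu-miR-574-3p: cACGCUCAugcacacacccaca
mmu-miR-423-3p: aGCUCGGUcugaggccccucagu
mmu-miR-423-5p: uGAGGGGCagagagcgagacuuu

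A region 320 bp from the Mir23a, Mir27a and Mir24-2 cluster, known in blood cell differentiation, had scores of 60.58 in KI and 66.58 in WT and a KO peak 3640 bp away. Expression of the microRNAs was not measured in these libraries.

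Promoters of the 868 genes were searched for motif letters, exact and on both strands. The table held 854 promoters of 685 of these genes, 8687 of genes with a region of all 3 peaks at an end and no region of the set, and 21263 in all. The CCAAT box was in 30.8% (27.8 to 34.0) of the promoters of the set, in 41.0% (40.0 to 42.0) of those of genes with all 3 peaks and in 38.2% of all promoters. The GC box (GGGCGG) was in 60.1%, 65.8% and 46.2%, the ETS core (CCGGAAG) in 15.6%, 19.4% and 11.6% and the core of the cAMP response element (TGACG) in 26.8%, 34.0% and 23.6%, in the same order. The full element (TGACGTCA), which contains that core, was in 3.28%, 3.53% and 2.23%. The GATA motif (AGATAA) was in 6.56%, 5.87% and 9.65%, STAT (TTCNNNGAA) in 6.21%, 6.39% and 7.69% and the TATA box (TATAAA) in 7.85%, 6.60% and 12.6%. Median GC content was 59.7%, 61.7% and 56.3%, and its part in the motif shares was not tested.

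The CCAAT share was also lower where the promoter window itself overlapped the region, a reading added after the data were seen. It was 27.8% (24.6 to 31.3) over 690 promoters of the set and 41.9% (40.8 to 43.0) over 8192 of regions with all 3 peaks. Regions with all 3 peaks outside the upper 50% of KI or WT scores, which are closer to the set in rank, had 35.0% (32.8 to 37.3), and those with KI and KO peaks only 30.0% (26.5 to 33.6). The interval for KI and KO peaks only overlapped that of the set. For windows of the set, of these lower-ranked regions with all 3 peaks and of KI and KO peaks only, the GC box was in 65.2%, 65.6% and 59.1%. In the same order TGACG was in 28.4%, 33.1% and 28.5% and the ETS core in 18.1%, 20.8% and 16.0%. The lower shares of these motifs than in genes with all 3 peaks were thus not particular to the set. AP-1 (TGANTCA) was in 3.33% (2.23 to 4.95) of windows of the set and in 7.29% (5.51 to 9.59) of those with KI and KO peaks only, and the interferon motif (GAAANNGAA) in 5.51% (4.04 to 7.47) and 9.51% (7.46 to 12). Windows with all 3 peaks had 3.56% and 5.83%, near those of the set, and all promoters had 6.99% and 8.15%. The class with KI and KO peaks only thus lay nearer to all promoters than these other classes did, with no test of the difference. NRF1 (GCATGCGC), YY1 (AAGATGGCG) and the E-box (CACGTG) were in 5.80%, 3.19% and 10.4% of windows of the set, and in 5.71%, 1.74% and 11.1% of those with KI and KO peaks only.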

How the data were processed

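Each of the 3 ATAC-seq libraries had 1 deposited peak list of 5 columns, and peaks were called per library, as the separate lists show. Names in the lists have the form that MACS writes. The fifth column is the peak score the authors deposited, read as the MACS form of 10 times the negative log10 of a p-value, and its lowest value was 50. It was used only to rank and filter peaks within a list. The submitters' processing notes name mm10 as build and CASAVA as a tool. Not given in the sources used here are the aligner, the caller version, the read shift, the handling of duplicates, any control and the depth. More weak peaks pass a fixed score in a deeper library, so a missing KO peak is a missing call and not a measure of closed chromatin.

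Lists were merged with bedtools 2.31.1 (gap 0 bp). A region took the highest score of each list. Genes came from the RefSeq table of GRCm38.p6, promoters and microRNAs from RefSeq tables of the same assembly, of which 685 of 868 genes matched the promoters. A gene end is within 1 kb of either annotated end of a gene, and a region can lie at ends of several genes. Intervals of shares are Wilson 95% intervals and reflect counting error alone. Classes and positions were tested on simulated peaks.

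Members and gene lists were chosen with earlier results of these data known. Named were Mtor, the first 25 gene-end and 12 farther high-ranked regions ordered by the lower of both percentiles (farther ones with no gene within 50 kb were passed over), and up to 5 genes of each list. Further list genes, Cish, Runx1, Mrpl48, Emilin1, Gba2, genes with several regions, the microRNAs and the histone genes were named after their values were seen. The lists held 3348 matched genes and 4 entries without a match. A few list genes are counted but not reported here by name. Alternatives were other merge gaps, stricter scores, equal list size, other gene-end windows and exclusion of regions near a KO peak.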

Additional observations from a re-analysis of the deposited data

How the results depend on the processing

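The count of 2526 regions was 2504 with a merge gap of 100 bp, 2476 with 500 bp, 2393 without those within 1 kb of a KO peak, 2477 where KI and WT peaks overlapped by at least 50% and 1761 at equal list size (the 17316 highest-scoring peaks of each list, 1434 regions shared with the main set). It was 1464 with scores of at least 100 in all lists, of which 173 were in the main set, since KO peaks were then removed too, 173 when every KO peak was kept, and 1434 with KI alone reduced to the WT length, an alternative added after the data were seen. High-ranked regions numbered 4 in the upper 25% of both lists (Mtor, Eya1, Bop1/Hsf1 and Cpne2) and 131 at equal list size, against 241. Their gene-end share was 53.9% with a window of 2500 bp and 64.9% at equal size, against 46.5%. Over the set it was 27.4% with 500 bp, 36.9% with 2500 bp and 37.7% at equal size, against 30.4%. List genes numbered 92 at equal size (77 of the same genes) and 140 with 2500 bp, against 110. Of the remaining values, 76 stayed within their limits and 24 moved, and at equal size the megakaryocyte, B lymphoid and dendritic lists had 0 genes left. The cause of these shifts was not tested. No paired analysis was possible because each genotype had 1 library. Depth was unknown, so weak KO peaks below the calling score could not be told apart from absent ones.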

Other observations

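Clustered histone genes, the short genes that supply histones during replication, were examined after their names were seen among the genes of the set. Of 68 such genes, 47 had a KI and WT region at an end and 10 of these had one without a KO peak (21.3%, 12 to 34.9, against 9.21% over all genes). The 10 genes shared 6 regions, among them chr13:21811190-21812376 over H4c17, H2ac23 and H2bc23, with scores of 79.14 in KI and 73.26 in WT. A KO peak lay 372 bp from it, and 3 of the 10 genes had none at either end, against 83.2% of the 868 genes.

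A few high-ranked regions were very narrow. One inside Cdh13, a cadherin gene, was 150 bp wide with scores of 126.19 in KI and 168.7 in WT, and the nearest KO peak was 496882 bp away. Another, chr16:5709111-5709334, lay 175458 bp from the nearest gene with 147.79 in KI and 161.97 in WT, and chr14:45812587-45812944 lay 154443 bp from one with 241.79 and 107.56. The median width of high-ranked regions was 701 bp.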
